A study of Oryzias latipes with 27 samples.

Results

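The ovary of wild-type XX females (WT_Fe_Ov) was compared with the testis of wild-type XY males (WT_Ma_Te) in medaka (Oryzias latipes) at 10 days post hatch (D10), with 3 small RNA libraries each. These 6 libraries are all the D10 libraries of both groups among the 27 of the series, and all 437 mature miRNAs of the count table were examined. The remaining libraries cover the same 2 groups at 30 and 120 days post hatch (D30 and D120) and, at the 3 ages, MT_Fe_Ov, the ovary of XY fish whose DMY gene was disrupted. DMY, on the Y chromosome, is the medaka gene that sets off testis formation. The WT_Fe_Ov and WT_Ma_Te fish carried no engineered allele and received no treatment. Genotype and sex had been determined by PCR for DMY on tail DNA. At D10 the gonad is a primordium, and the sequenced piece of each fish was the primordium with the neighbouring trunk tissue, head and tail removed. The labels call the libraries of a group biological replicates. How many fish went into a library is not given in the sources used here, so p-values measure the spread between these libraries.

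A miRNA is a short RNA cut from a hairpin precursor and loaded into an Argonaute protein, where bases near its 5′ end, the seed, pair with messenger RNAs and lower their stability and translation. Each hairpin can release a 5p and a 3p arm, of which usually only one is kept at a high level, and neighbouring hairpins are often cut from a shared primary transcript. In medaka the XX and XY primordia already differ at hatching in the behaviour of their germ cells, which proliferate and enter meiosis earlier in XX, while the somatic ovary and testis take shape later. In bulk tissue, fewer cells of a type and less RNA per cell cannot be told apart.

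The sequences shown are the forward qPCR primers of the study, which identify the mature arm that each assay read. They are printed 5′ to 3′ as the study lists them, with a 5′ extension whose length is not given, and they are shown because these 6 miRNAs are followed below across the libraries.
miR-10b-5p: cgcgtaccctgtagaaccga
miR-214-3p: cgcgtacagcaggcacagac
miR-30e-2-3p: cgcgctttcagtcggatgt
miR-99a-5p: gcgaacccgtagatccgat
miR-146a-5p: cgcgtgagaactgaattccat
miR-7-5p: cgcgtggaagactagtgatttt

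The 6 libraries held 7421144, 4290064 and 4840666 miRNA counts in WT_Fe_Ov, against 2532275, 2518868 and 8780941 in WT_Ma_Te. In the paper these libraries have similar numbers of reads but unlike shares of reads on miRNAs. That share is lowest in WT_Ma_Te replicates 1 and 2 and, within WT_Fe_Ov, in replicate 2. Whether this bears on the differences below was not tested. Levels are given in RPM, the reads of a miRNA scaled by the authors to the same miRNA total in every library, so that a high share of an abundant miRNA lowers the rest. A count of 0 allows up to 3 counts, which equals 0.342 RPM in the deepest of the 6 libraries and 1.19 RPM in the shallowest, and these floors cover counting error only. Across miRNAs, Pearson's r of log2(RPM + 1) lay between 0.985 and 0.988 within WT_Fe_Ov, between 0.974 and 0.983 within WT_Ma_Te, and between 0.967 and 0.989 across the groups, and the ranges overlapped. WT_Fe_Ov replicate 2 lay nearest to the testis, with r of 0.977 to 0.989 to the testis libraries, against 0.967 to 0.977 for WT_Fe_Ov replicates 1 and 3. It was the ovary library closest to the testis mean for 183 of 388 miRNAs (47.2%). The 7 miRNAs that passed the edgeR threshold without this library are given with their values below. Leaving out the lowest ovary library raises a fold change toward the ovary by construction, so such fits are a description only.

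No miRNA passed the threshold for a differentially expressed miRNA (DEM), an adjusted p-value of at most 0.05 with a fitted change of 1 or more on the log2 scale, in the edgeR quasi-likelihood test of the 388 miRNAs with enough counts (0%). Of the 49 others, 12 had no count in any of the 6 libraries, and the highest averaged 7.84 RPM. The lowest adjusted p was 0.0857, shared by 9 miRNAs. Before adjustment 76 miRNAs (19.6%) had a p-value under 0.05 in that test, 44 higher in WT_Fe_Ov (11.3%) and 32 lower (8.25%). With scaling by library totals alone this split was 58 higher and 22 lower, and over all miRNAs the median of the log2 fold changes was 0.11 in place of -0.04. The DESeq2 Wald test on the same 9 D10 libraries called 23 DEMs among the 333 miRNAs with an adjusted p (6.91%), 18 higher (5.41%) and 5 lower (1.5%). The paper, which used DESeq2, also reports DEMs between WT_Fe_Ov and WT_Ma_Te at D10. Leaving out WT_Fe_Ov replicate 2 gave 7 DEMs in the edgeR test, leaving out WT_Fe_Ov replicate 3 gave 1, and leaving out any other D10 library gave 0.

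The fitted differences were of about the size of their standard errors. The median absolute log2 fold change was 0.42 and the median standard error (SE) 0.36. On the log2(RPM + 1) scale the median standard deviation (SD) was 0.35 within WT_Fe_Ov and 0.45 within WT_Ma_Te, against a median absolute difference of the group means of 0.38. A total of 50 miRNAs differed at least 2-fold in the fit, 37 higher and 13 lower, and 14 of them averaged at least 100 RPM. For 111 of 388 miRNAs (28.6%) the whole 95% interval of the fold change lay within 2-fold, among them 80 of the 180 miRNAs that averaged at least 100 RPM. For the others the interval reached beyond 2-fold. In a count free of any model, the 3 RPM values of WT_Fe_Ov all lay above or all below those of WT_Ma_Te for 85 miRNAs (21.9%), 59 above (15.2%) and 26 below (6.7%). On the TMM-scaled level used by the edgeR test the split was 50 above and 36 below.

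**Figure D1:**
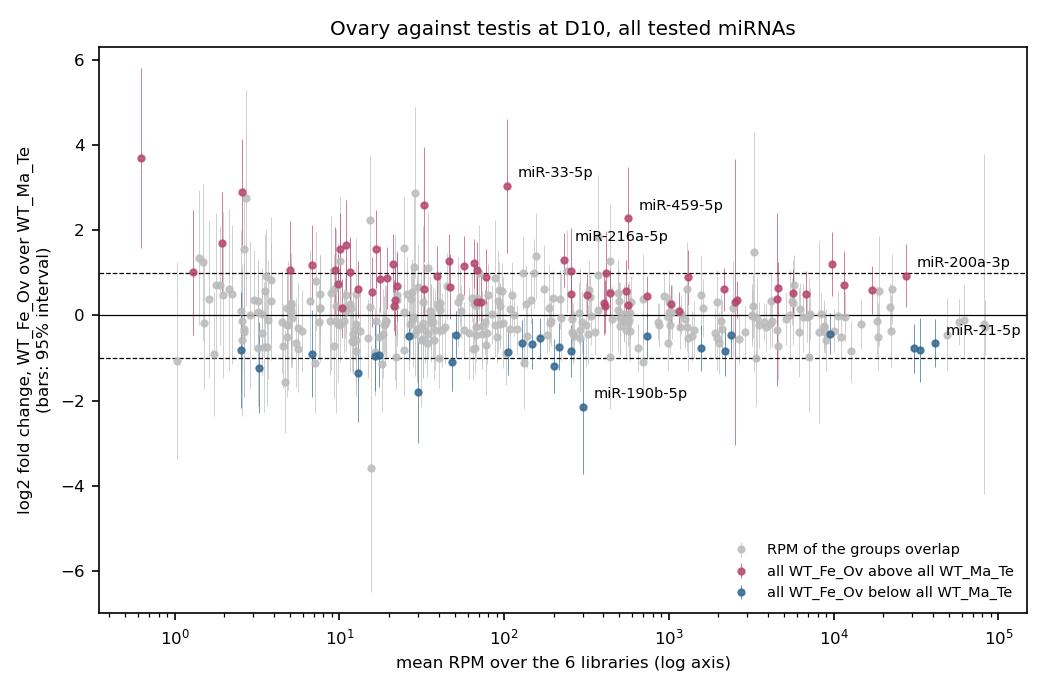
Fitted log2 fold change of WT_Fe_Ov over WT_Ma_Te at D10 (vertical axis, bars give the 95% interval) against mean RPM over the 6 libraries (horizontal log axis) for the 388 tested miRNAs, coloured by whether the RPM values of the groups overlap. Most points lie between the dashed lines at 2-fold, and the points outside them are mainly miRNAs below 100 RPM.

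Among miRNAs of at least 100 RPM whose libraries did not overlap, the largest fold differences toward the ovary were those of miR-33-5p and miR-459-5p. miR-33-5p, which in mammals acts on cholesterol transport, had 334, 30.1 and 203 RPM in WT_Fe_Ov, against 28.8, 17.5 and 15.0 RPM in WT_Ma_Te. Its hairpin lies inside srebf1, a regulator of sterol and lipid genes, on chromosome 8 at 12411119 to 12411212 (ASM223467v1). The log2 fold change was 3.04 ± 0.71 (SE), the 95% interval 1.47 to 4.61 and the adjusted p 0.0857 in the edgeR test. Replicate 2 of WT_Fe_Ov was close to the testis, and without it the log2 fold change was 3.54 with an adjusted p of 0.00968. Without WT_Fe_Ov replicate 1, the highest ovary library, the log2 fold change was 2.34. miR-33-5p was also a DEM with DESeq2 (adjusted p = 0.000448) and in the edgeR fit of all 27 libraries (adjusted p = 0.0203).

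miR-459-5p, a miRNA named in fish, had 1530.4, 354 and 983 RPM in WT_Fe_Ov, against 88.9, 184 and 248 RPM in WT_Ma_Te. The hairpin is on chromosome 2 at 1298973 to 1299077, and no counts of its 3p arm were found in the 6 libraries. Its log2 fold change was 2.28 ± 0.54 (SE, adjusted p = 0.0857). Again replicate 2 was the lowest ovary library, and without it the adjusted p was 0.0272. Without WT_Fe_Ov replicate 1, the highest ovary library, the log2 fold change was 1.78. miR-216a-5p, which in mice and zebrafish is known from the pancreas, had 378, 188 and 451 RPM in WT_Fe_Ov, against 112, 108 and 148 RPM in WT_Ma_Te (log2 fold change 1.30 ± 0.28, SE, adjusted p = 0.0857). Replicate 2 of WT_Fe_Ov was once more the lowest of its group, and without it the log2 fold change was 1.55 (adjusted p = 0.0169). Without WT_Fe_Ov replicate 3, the highest of its group, the log2 fold change was 1.08. In all, WT_Fe_Ov replicate 2 was the lowest ovary library for 7 of the 10 named miRNAs higher in the ovary, and for 19 of the 27 miRNAs that met the same rule.

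The other 8 named miRNAs of this set had smaller fold differences than miR-33-5p and miR-459-5p. miR-143-3p, a miRNA of smooth muscle and connective tissue, had 17092, 8348 and 16609.5 RPM in WT_Fe_Ov, against 7402, 3005 and 6112 RPM in WT_Ma_Te. Its log2 fold change was 1.21 ± 0.34 (SE, adjusted p = 0.123), and it was a DEM in the fit of all 27 libraries (adjusted p = 0.0239). miR-200a-3p, which marks epithelia and in mammals restrains the Zeb repressors, had 49440.1, 31856 and 30755 RPM in WT_Fe_Ov, against 10968, 21085 and 20731 RPM in WT_Ma_Te. The lowest ovary value lay above the highest testis value (log2 fold change 0.93 ± 0.33, SE, adjusted p = 0.166). miR-27c-3p had 1956, 1158 and 2156 RPM in WT_Fe_Ov, against 684, 799.6 and 1057 RPM in WT_Ma_Te, and miR-301a-3p, whose hairpin lies within ska2, had 403, 273 and 393 RPM in WT_Fe_Ov, against 103, 152 and 214 RPM in WT_Ma_Te. In both, replicate 2 was the lowest ovary library and still above the testis. miR-19b-3p of the miR-17-92 group averaged 2719 ± 598 RPM in WT_Fe_Ov and 1602 ± 306 RPM in WT_Ma_Te (SD, n = 3 each).

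Both muscle miRNAs in this set were higher in all 3 ovary libraries by RPM. miR-499a-5p, which is encoded within a slow myosin gene in vertebrates, had 23472, 23316 and 17498 RPM in WT_Fe_Ov, against 11020.5, 13315 and 14256 RPM in WT_Ma_Te (log2 fold change 0.61 ± 0.25, SE, adjusted p = 0.226). Its 3p arm differed in the same direction, with 101, 73.0 and 70.4 RPM in WT_Fe_Ov, against 23.7, 39.7 and 34.5 RPM in WT_Ma_Te (log2 fold change 1.17 ± 0.31, SE). miR-1-3p, the main miRNA of striated muscle, had 5670.3, 6714 and 4951 RPM in WT_Fe_Ov, against 3607, 3928 and 2557 RPM in WT_Ma_Te, and on the TMM-scaled level its libraries overlapped. The other 9 named miRNAs higher in the ovary, and the 10 named miRNAs lower in it, did not overlap on either scale.

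**Figure D2:**
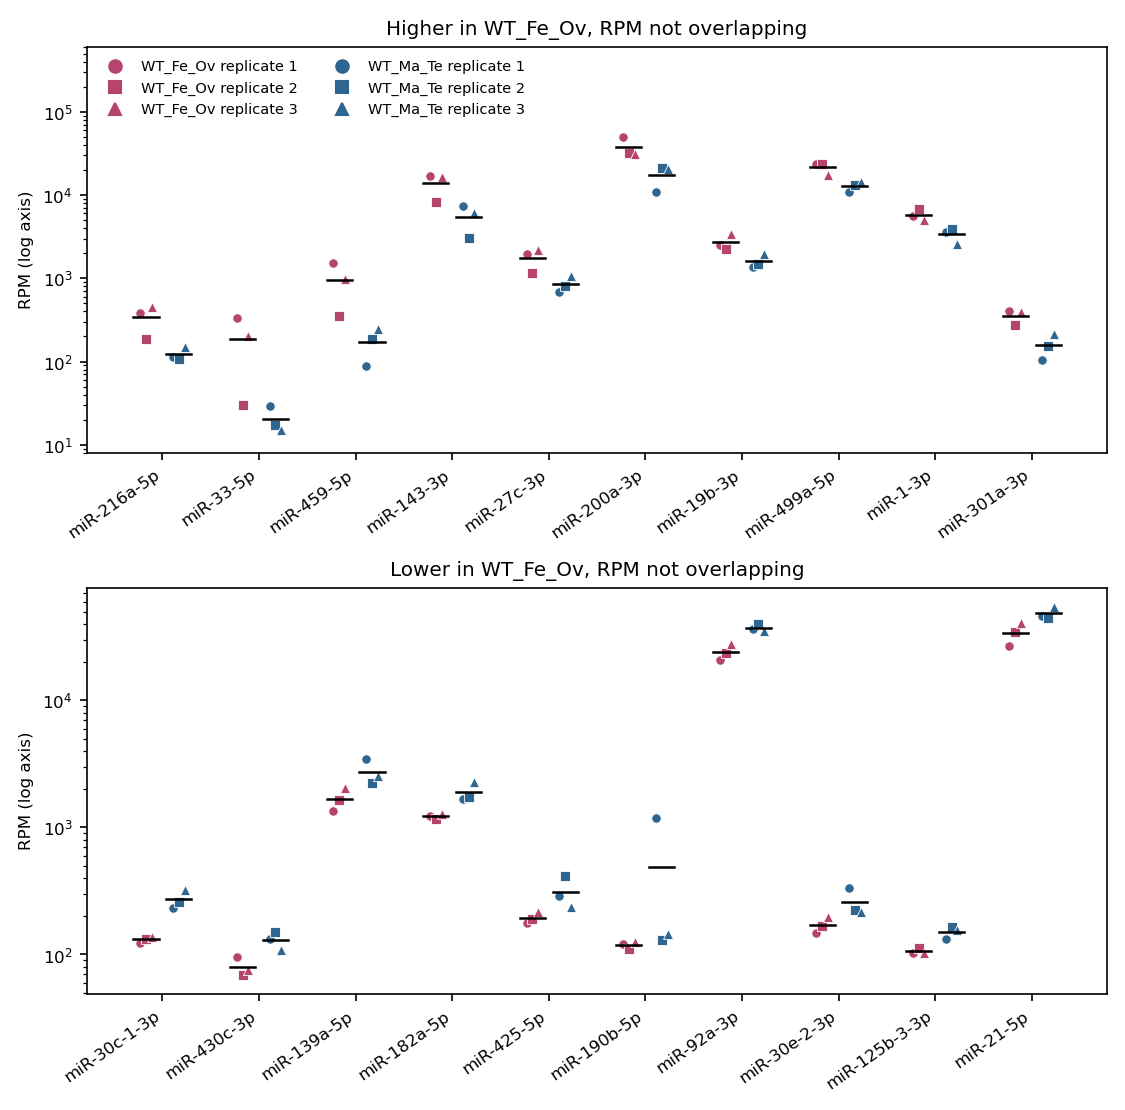
RPM (log axis) of the 10 miRNAs higher (upper panel) and the 10 lower (lower panel) in WT_Fe_Ov, with 1 point per library, its shape giving the replicate, and a black line at the group mean. The squares of WT_Fe_Ov replicate 2 sit lowest of the ovary points for miR-33-5p, miR-459-5p and miR-216a-5p, and 1 testis library stands far above the others for miR-190b-5p.

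The miRNAs lower in every ovary library spanned a narrower range of fold differences. miR-30c-1-3p, the passenger arm of a widely expressed family, had 124, 133 and 138 RPM in WT_Fe_Ov, against 233, 260.0 and 323 RPM in WT_Ma_Te. The ovary libraries were tightly grouped and each lay below every testis library (log2 fold change -1.18 ± 0.29, SE, adjusted p = 0.0857). It was a DEM with DESeq2 (adjusted p = 0.00802). miR-190b-5p had 120.1, 110.3 and 124 RPM in WT_Fe_Ov, against 1181, 129 and 145 RPM in WT_Ma_Te. Testis replicate 1 alone set the size of that difference: the log2 fold change was -2.14 with all libraries and -0.37 without testis replicate 1.

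miR-21-5p and miR-92a-3p were the most abundant of the 10 named miRNAs of this direction. miR-21-5p, a widely expressed miRNA linked to growth and tissue repair in mammals, had 26879.8, 34432 and 40455 RPM in WT_Fe_Ov, against 46178, 44399 and 54781 RPM in WT_Ma_Te (log2 fold change -0.65 ± 0.25, SE, adjusted p = 0.202). miR-92a-3p had 20839, 23499 and 27856 RPM in WT_Fe_Ov, against 36419, 40155 and 35307 RPM in WT_Ma_Te (log2 fold change -0.78 ± 0.26, SE, adjusted p = 0.151). The group means of both differed by more than the SD within either group. miR-139a-5p averaged 1670.2 ± 339 RPM in WT_Fe_Ov and 2738 ± 641 RPM in WT_Ma_Te. For miR-182a-5p, known from sensory hair cells, the averages were 1224 ± 60.9 RPM in WT_Fe_Ov and 1893 ± 335 RPM in WT_Ma_Te. Besides miR-30e-2-3p, given below with the qPCR set, miR-425-5p, miR-125b-3-3p and miR-430c-3p, had log2 fold changes of -0.84, -0.64 and -0.86, with adjusted p-values of 0.151, 0.185 and 0.123.

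The same 5 miRNAs were the most abundant in both groups: miR-26a-2/3-ba-5p, miR-203b-3p, miR-206-1-3p, miR-181a-5p and miR-133a-3p. Of these, miR-206-1-3p and miR-133a-3p belong to skeletal muscle and miR-203b-3p to skin. miR-206-1-3p had 48524, 83958 and 53776 RPM in WT_Fe_Ov, against 67934, 74249 and 41822 RPM in WT_Ma_Te, with overlapping groups and a 95% interval of -0.96 to 0.74 on the log2 scale. miR-203b-3p averaged 78893 ± 11028 RPM in WT_Fe_Ov and 86436 ± 24854 RPM in WT_Ma_Te. miR-133a-3p averaged 44033 ± 13353 RPM in WT_Fe_Ov and 53914 ± 15267 RPM in WT_Ma_Te. None of the 5 separated the groups.

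miRNAs known from muscle and skin made up a larger part of the D10 reads than those known from the gonad. The 10 muscle miRNAs summed to 121599, 152675 and 143956 RPM in WT_Fe_Ov, against 156474, 156149 and 97760.4 RPM in WT_Ma_Te, overlapping between the groups. The 2 arms of miR-202, a miRNA of ovarian follicle cells and Sertoli cells that medaka females need for normal egg production, summed to 473, 416 and 112 RPM in WT_Fe_Ov, against 156, 125 and 176 RPM in WT_Ma_Te. Skin miRNAs summed to 97112, 96353 and 78388 RPM in WT_Fe_Ov, against 76865, 133797 and 99705 RPM in WT_Ma_Te, again with overlap. Neural, gut, liver, sensory, immune, endothelial, cartilage and stromal sums overlapped between the groups as well. Among the tissue lists, the sums of the epithelial and erythroid lists did not overlap in RPM. The 6 epithelial miRNAs summed to 67675, 48825 and 44951 RPM in WT_Fe_Ov, against 23285, 39427 and 37138 RPM in WT_Ma_Te, a difference carried by miR-200a-3p, and the 3 erythroid miRNAs to 20851, 13572 and 10312 RPM in WT_Fe_Ov, against 6110.3, 9451 and 9283 RPM in WT_Ma_Te, nearly all of it miR-451-5p. On the TMM-scaled level both sums overlapped. Whether the share of these tissues in the dissected piece differed between the groups was not tested.

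Over all tested miRNAs, 11.3% had an unadjusted p under 0.05 toward the ovary and 8.25% toward the testis, and 15.2% lay above and 6.7% below the testis without overlap in RPM. In the muscle list 3 of 10 miRNAs had an unadjusted p under 0.05 toward the ovary and 1 toward the testis, or 1 and 0 without WT_Fe_Ov replicate 2, and the median log2 fold change was 0.39, against -0.04 over all 388. In the stromal list 2 of 9 lay toward the ovary, miR-143-3p and miR-214a-5p, and 4 of 9 did not overlap, with a median of 0.57. Neural miRNAs had 2 higher and 3 lower of 21, and gut miRNAs had 0 of 6 in either direction. The immune list had a median log2 fold change of -0.35, and 2 of its 9 members had a positive value. One member, miR-142-5p of blood cells, had an unadjusted p under 0.05 toward the ovary (2 members without WT_Fe_Ov replicate 2), and 0 toward the testis. miR-142-5p had 41, 10 and 29 counts in WT_Fe_Ov, against 1, 1 and 6 counts in WT_Ma_Te. These counts are near the detection floor, so no fold is given. miR-142-5p had an adjusted p of 0.0857 in the edgeR test and of 0.0172 without WT_Fe_Ov replicate 2.

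**Figure D3:**
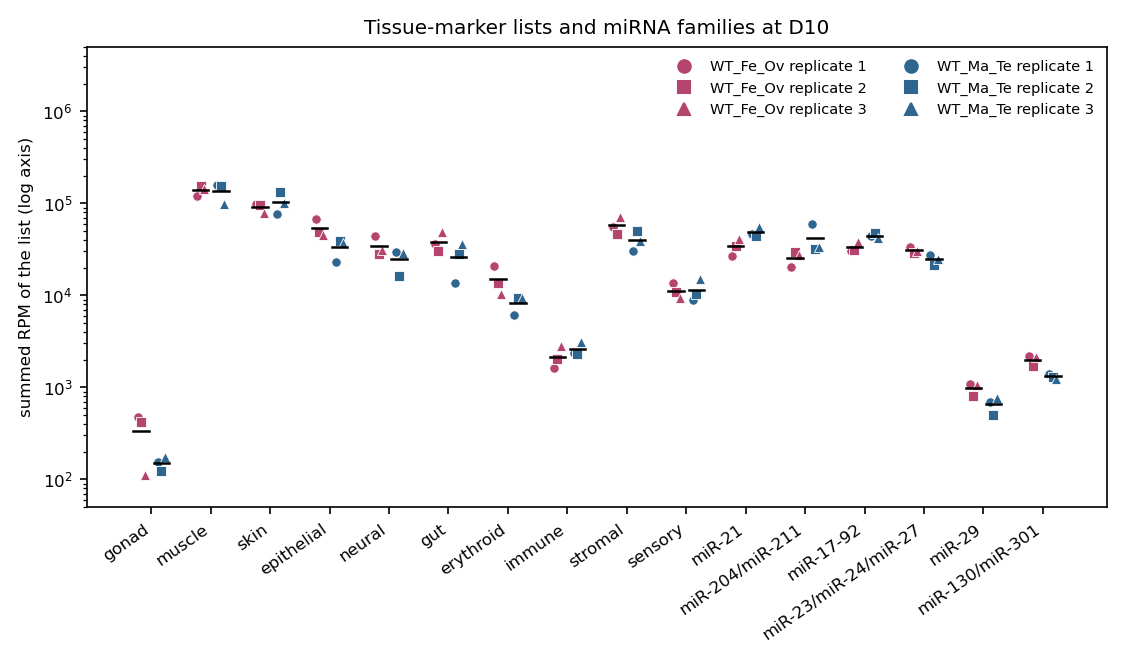
Summed RPM (log axis) of 10 tissue-marker lists and 6 miRNA families in each D10 library, with 1 point per library, its shape giving the replicate, and a black line at the group mean. Muscle and skin miRNAs sum to about the same level in both groups, while the miR-130/miR-301 sums of the ovary libraries all lie above those of the testis.

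miR-202-5p, the gonadal miRNA, had 468, 413 and 112 RPM in WT_Fe_Ov, against 155, 123 and 174 RPM in WT_Ma_Te. Ovary replicates 1 and 2 lay above all testis libraries and replicate 3 below all of them, so the groups overlapped. The log2 fold change was 1.03 ± 0.44 (SE, adjusted p = 0.234). Without WT_Fe_Ov replicate 3 it was 1.46 with an adjusted p of 0.0342, the 1 DEM of that fit. Replicate 3 was the lowest ovary library, so leaving it out raises the difference by construction. The 3p arm was far lower, with 37, 13 and 1 counts in WT_Fe_Ov, against 1, 5 and 20 counts in WT_Ma_Te. Both groups thus held miR-202-5p at D10 at a level well below that of muscle and skin miRNAs.

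In the miR-130/miR-301 family, whose 3p arms share a seed, the summed level lay toward the ovary in both scalings. Of both arms together 4 of 10 tested members had an unadjusted p under 0.05 and all 4 were higher in the ovary, against 11.3% of all miRNAs. The RPM of 6 members did not overlap between the groups, all 6 higher in the ovary, against 15.2% of all miRNAs, and these were the 5 members on the 3p arm plus miR-301c-5p. On the TMM-scaled level 4 of the 6 did not overlap, while miR-130c-1-3p and miR-130c-2-3p did. Of the 5p arms, miR-130b-5p, miR-130c-1-5p and miR-130c-2-5p had log2 fold changes of -0.44, -0.58 and -0.23. Without WT_Fe_Ov replicate 2 the count of members under 0.05 was 3. The summed level was 2198, 1688 and 2121 RPM in WT_Fe_Ov, against 1413, 1288 and 1241 RPM in WT_Ma_Te, and the groups did not overlap on the TMM-scaled level either. miR-130b-3p had 112, 75.3 and 95.9 RPM in WT_Fe_Ov, against 31.2, 29.4 and 48.9 RPM in WT_Ma_Te (log2 fold change 1.23 ± 0.26, SE, adjusted p = 0.0857). miR-130b-3p shared the lowest adjusted p of the edgeR test, and with DESeq2 its adjusted p was 0.00265. miR-301c-3p had 700.3, 422 and 603 RPM in WT_Fe_Ov, against 169, 268 and 340.1 RPM in WT_Ma_Te (log2 fold change 1.00 ± 0.44, SE, adjusted p = 0.248). miR-130c-1-3p and miR-130c-2-3p differed less, with log2 fold changes of 0.28 ± 0.33 and 0.31 ± 0.28 (SE).

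The miR-17-92 group, named for growth-promoting clusters in vertebrates, was split. Of 29 tested members 6 had an unadjusted p under 0.05 toward the ovary and 2 toward the testis, against 11.3% and 8.25% of all miRNAs. Those toward the ovary were the 5p arms of miR-18a and miR-18c, miR-19 members and a miR-20a arm, with miR-19a-1-5p the furthest, averaging 15.4 ± 5.19 RPM in WT_Fe_Ov and 4.69 ± 0.813 RPM in WT_Ma_Te (log2 fold change 1.56 ± 0.38, SE, adjusted p = 0.0857). Those toward the testis were both miR-92a arms, miR-92a-3p and miR-92a-1-5p. The scarcer miR-18a-3p and miR-18c-3p had log2 fold changes of -0.84 ± 0.48 and -1.12 ± 0.53 (SE), opposite to their 5p arms. As miR-92a-3p makes up most of the group, the summed level was lower in the ovary although the median log2 fold change of the members was 0.11: the sums were 30352, 31327 and 38187 RPM in WT_Fe_Ov, against 43869.6, 47015 and 42156 RPM in WT_Ma_Te.

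Members of the miR-23/miR-24/miR-27 family had 3 of 21 higher and 1 lower (4 and 0 without WT_Fe_Ov replicate 2), near the shares over all miRNAs of 11.3% and 8.25%. miR-27d-3p was the furthest, with 11.6, 18.2 and 20.7 RPM in WT_Fe_Ov, against 5.13, 7.54 and 2.51 RPM in WT_Ma_Te (log2 fold change 1.65 ± 0.48, SE, adjusted p = 0.129). The 3p arms of miR-27b, miR-27c, miR-27d and miR-27e were higher in every ovary library by RPM, and on the TMM-scaled level miR-27e-3p overlapped. In RPM 6 of the 21 lay above the testis without overlap and 2 below, against 15.2% and 6.7% of all miRNAs. On the TMM-scaled level 4 lay above and 1 below. miR-27a-3p overlapped with a log2 fold change of 1.27 ± 0.60 (SE). The let-7 family, which marks differentiated tissue, had 0 of 21 tested members under 0.05 in either direction, and for 13 of them the 95% interval lay within 2-fold. In the miR-430 family, which clears maternal messenger RNA in zebrafish embryos, 2 of 5 tested members were under 0.05 and both were lower in the ovary. One was miR-430c-3p, and the other, miR-430d-2-3p, had 10.9, 11.7 and 12.8 RPM in WT_Fe_Ov, against 30.0, 19.9 and 12.9 RPM in WT_Ma_Te. Among 31 tested fish-specific miRNAs 6 were higher and 4 lower, against 11.3% and 8.25% of all miRNAs, and without WT_Fe_Ov replicate 2 the counts were 4 and 2. One of them, miR-723b-3p, had 11, 4 and 6 counts in WT_Fe_Ov, against 0, 0 and 1 counts in WT_Ma_Te, too few for a fold.

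In 4 pairs of neighbouring hairpins, chosen after their values were seen, the members differed unequally. On chromosome 7, mir200a at 796023 to 796119 is followed by mir200b at 796182 to 796279. miR-200a-3p was higher in every ovary library, while miR-200b-3p had 4819, 4737 and 3043 RPM in WT_Fe_Ov, against 3768, 4362 and 4594 RPM in WT_Ma_Te (log2 fold change -0.14 ± 0.27, SE, 95% interval -0.74 to 0.45). On chromosome 10, mir143 at 4587604 to 4587712 is followed by mir145 at 4587826 to 4587885. miR-143-3p was higher in the ovary, while miR-145-5p had 413, 419.8 and 636 RPM in WT_Fe_Ov, against 637, 501 and 443 RPM in WT_Ma_Te (log2 fold change -0.25 ± 0.31, SE). The much scarcer miR-145-3p lay in the direction of miR-143-3p, at 16.4 ± 3.51 RPM in WT_Fe_Ov and 9.64 ± 1.63 RPM in WT_Ma_Te (SD). Its log2 fold change was 0.61 ± 0.30 (SE), and its libraries did not overlap on either scale. On chromosome 8, mir24a-2 at 13284080 to 13284168 is followed by mir27c at 13284932 to 13285038. miR-27c-3p was higher in the ovary, while miR-24a-2-3p averaged 7146 ± 564 RPM in WT_Fe_Ov and 6618 ± 512 RPM in WT_Ma_Te (log2 fold change -0.03 ± 0.27, SE). On chromosome 21, mir92a-1 at 23593669 to 23593772 adjoins mir19b-1 at 23593777 to 23593878, and their mature forms lay in opposite directions, miR-92a-3p at -0.78 and miR-19b-3p at 0.62 on the log2 scale. Each of these 2 mature miRNAs also has a second hairpin elsewhere, whose reads cannot be told apart. miR-92a-1-5p, an arm named for the copy on chromosome 21, had 27.9, 29.1 and 41.5 RPM in WT_Fe_Ov, against 60.4, 62.7 and 65.9 RPM in WT_Ma_Te (log2 fold change -1.09 ± 0.31, SE), in the direction of miR-92a-3p.

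The 2 arms of a hairpin often had fold changes of unlike sign. Over all tested miRNAs the median absolute log2 fold change, 0.42, was close to the median SE of 0.36. For 109 hairpins with both arms tested, the arms had the same sign of fold change in 59 (54.1%). At D30 the same count was 31 of 49 hairpins (63.3%) and at D120 it was 81 of 90 (90.0%). Fewer hairpins had both arms tested at those stages, so the sets differ. At least 1 arm differed 2-fold at D10 in 30 hairpins, and in 1 of these, miR-187, both arms did so in the same direction. The 30 include scarce arms, such as miR-723b-3p at a mean of 0.628 RPM and miR-142-5p at 2.55 RPM. Counts of these 2 arms are too few for a fold. miR-216a-5p was higher in the ovary, while miR-216a-1-3p had 12.4, 11.4 and 8.06 RPM in WT_Fe_Ov, against 11.1, 6.35 and 7.86 RPM in WT_Ma_Te. The 3p arm of the other copy, miR-216a-2-3p, had 28.6, 3.96 and 10.9 RPM in WT_Fe_Ov, against 10.3, 2.78 and 3.64 RPM in WT_Ma_Te. Its log2 fold change of 1.29 ± 0.68 (SE) lay in the direction of the 5p arm. miR-27c-3p was higher, while miR-27c-5p had 343, 203 and 138 RPM in WT_Fe_Ov, against 92.4, 191 and 363 RPM in WT_Ma_Te. miR-182a-5p was lower, while miR-182a-3p had 204, 41.5 and 104 RPM in WT_Fe_Ov, against 114, 19.1 and 41.6 RPM in WT_Ma_Te. All of these second arms overlapped between the groups.

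miR-21-5p and miR-21a-3p lay in opposite directions. miR-21-5p has hairpins on chromosomes 13 and 14, whose reads cannot be told apart. The other 3p arm, miR-21b-3p, had a log2 fold change of 0.68. Its libraries did not overlap in RPM but did on the TMM-scaled level. miR-21-5p was lower in every ovary library, while miR-21a-3p had 72.8, 6.99 and 72.9 RPM in WT_Fe_Ov, against 15.0, 1.59 and 2.85 RPM in WT_Ma_Te (log2 fold change 2.88 ± 0.90, SE, adjusted p = 0.15). Ovary replicates 1 and 3 lay above all testis libraries and replicate 2 between them. miR-21a-3p rests on 540, 30 and 353 counts in WT_Fe_Ov, against 38, 4 and 25 counts in WT_Ma_Te, and was a DEM with DESeq2 (adjusted p = 0.00802). Of the erythroid hairpin mir144, miR-144-3p had 41.2, 5.83 and 31.0 RPM in WT_Fe_Ov, against 2.37, 5.56 and 6.26 RPM in WT_Ma_Te, high in ovary replicates 1 and 3 alone (adjusted p = 0.145, or 0.0467 without WT_Fe_Ov replicate 2), while miR-144-5p differed by -0.15 ± 0.39 (SE) on the log2 scale.

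**Figure D4:**
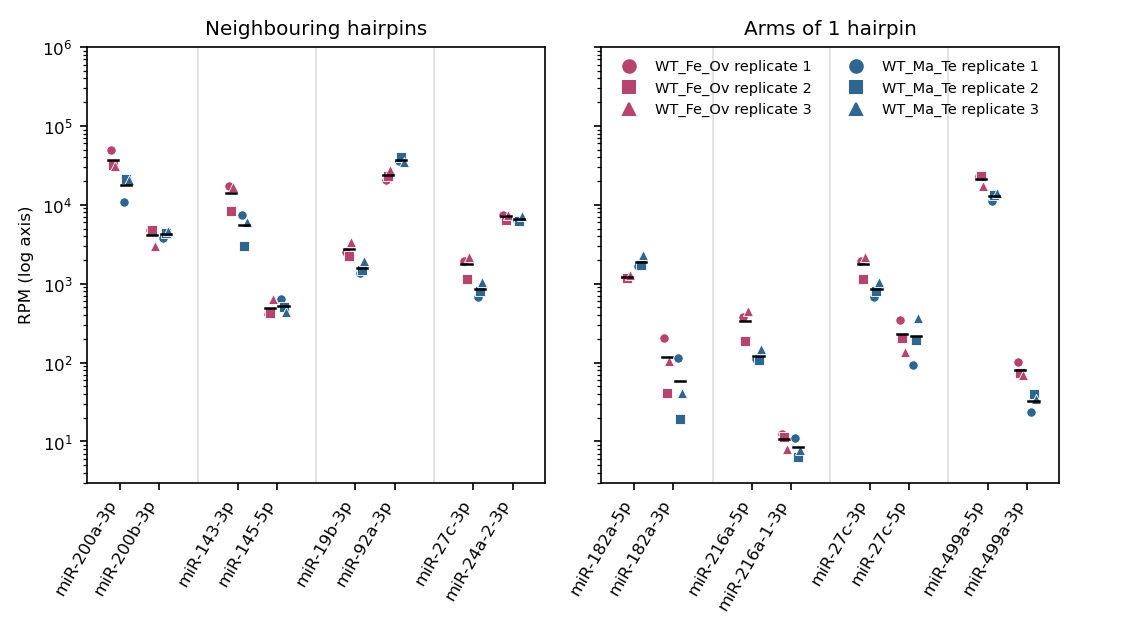
RPM (log axis) in each D10 library of 4 pairs of neighbouring hairpins (left) and of the arms of 4 hairpins (right), with 1 point per library, its shape giving the replicate, and a black line at the group mean. In the pairs on the left the first miRNA is higher in WT_Fe_Ov while the second overlaps or, for miR-92a-3p, is lower. Of the arms on the right, both arms of miR-499a are higher in WT_Fe_Ov.

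Of the 6 miRNAs with qPCR primers printed above, only miR-30e-2-3p had libraries that did not overlap. It had 148, 169 and 195 RPM in WT_Fe_Ov, against 332, 225 and 217 RPM in WT_Ma_Te (log2 fold change -0.73 ± 0.25, SE, adjusted p = 0.166). miR-7-5p, a miRNA of neuroendocrine cells, had 4352, 3776 and 3837 RPM in WT_Fe_Ov, against 5199, 3128 and 4311 RPM in WT_Ma_Te, and its interval of -0.78 to 0.37 lay within 2-fold. miR-99a-5p averaged 7992 ± 433 RPM in WT_Fe_Ov and 9619 ± 2051 RPM in WT_Ma_Te, also with an interval within 2-fold, -0.87 to 0.09. For miR-10b-5p, encoded in a Hox cluster, and miR-146a-5p, an immune miRNA, the intervals reached beyond 2-fold toward the testis, at -1.29 to 0.29 and -1.30 to 0.03. miR-214-3p had 4250.3, 4885 and 13659 RPM in WT_Fe_Ov, against 11497, 14241 and 284 RPM in WT_Ma_Te, and testis replicate 3 lay far below every other library, so its interval of -2.53 to 1.75 was the widest of the 6.

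The 5 miRNAs known to lead the later contrasts of these gonads had D10 log2 fold changes between -0.84 and 0.33. miR-31a-5p had 171, 100.2 and 93.4 RPM in WT_Fe_Ov, against 93.2, 157 and 212 RPM in WT_Ma_Te (log2 fold change -0.49 ± 0.33, SE, adjusted p = 0.44). miR-449-1-5p, of the miR-34 and miR-449 family of ciliated and germ cells, had 120.5, 97.0 and 98.5 RPM in WT_Fe_Ov, against 65.9, 16.7 and 149.6 RPM in WT_Ma_Te, with overlap. miR-204-5p had 20311, 29392 and 27169 RPM in WT_Fe_Ov, against 59401, 31470.5 and 33532 RPM in WT_Ma_Te, every ovary library below every testis library (log2 fold change -0.81 ± 0.34, SE, adjusted p = 0.226). miR-205-5p, a skin miRNA, had 8039, 10166 and 10912 RPM in WT_Fe_Ov, against 14870.0, 21347 and 10727 RPM in WT_Ma_Te, with the groups overlapping at ovary replicate 3 and testis replicate 3.

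At the later stages the ovary-testis differences were larger. The paper describes tissue next to the gonad in the sequenced piece for D10 only. The D30 libraries of the 2 groups also held fewer miRNA counts, 303501 to 810120 each. Stage, dissected tissue and depth thus change together. A smaller difference in the D10 gonad and a gonad diluted by other tissue cannot be told apart here. Over the 249 miRNAs tested at D30 and D10 the median absolute log2 fold change was 1.68 at D30 and 0.38 at D10, and over the 335 tested at D120 and D10 it was 0.84 at D120 and 0.41 at D10. The edgeR test called 117 of 250 tested miRNAs at D30 (46.8%) and 131 of 344 at D120 (38.1%), in libraries that are not shared with D10. Of the 117 DEMs of D30, 35 had the same direction at D10 (29.9%), against 91 of the 249 miRNAs tested at both stages (36.5%). Of the 126 DEMs of D120 that were tested at D10, 57 had the same direction (45.2%), against 174 of 335 (51.9%). Both shares among the DEMs lay below those over all miRNAs tested at both stages, which include the DEMs. Whether the shares differ was not tested. The D10 interval lay within 2-fold for 44 of the D30 DEMs (37.6%) and for 37 of the D120 DEMs (29.4%). The median absolute D10 log2 fold change was 0.43 for the D30 DEMs and 0.44 for the D120 DEMs. The difference between the groups itself differed from D10 for 197 of 399 miRNAs at D30 (49.4%) and for 70 of 399 at D120 (17.5%), by the edgeR test of the interaction with the DEM threshold.

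**Figure D5:**
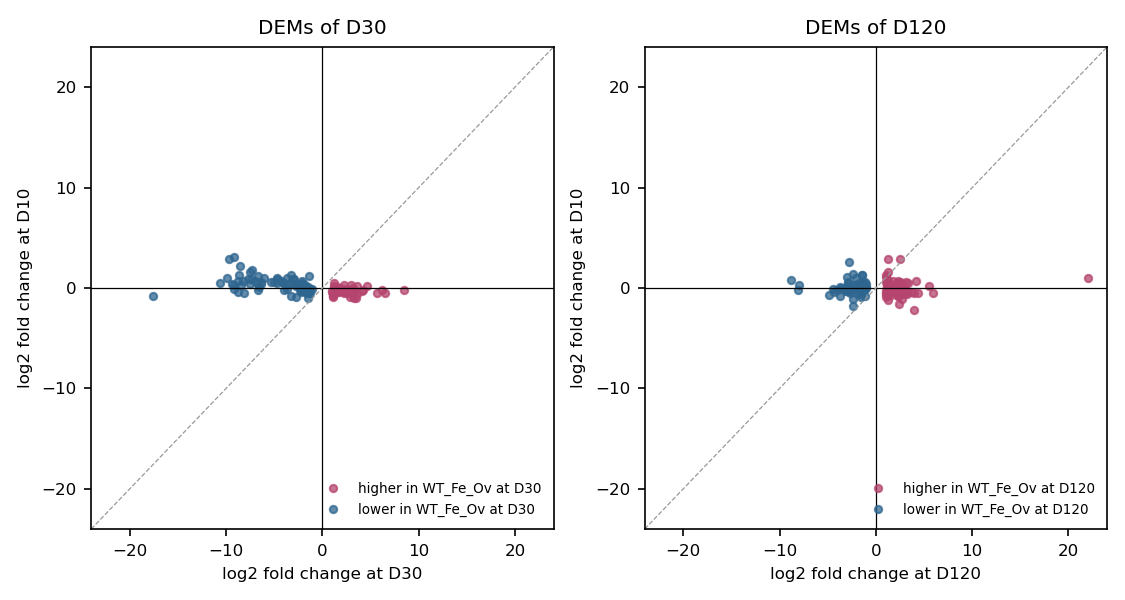
Fitted log2 fold change of WT_Fe_Ov over WT_Ma_Te at D10 (vertical axis) against that at D30 (left) or D120 (right) for the miRNAs that were DEMs at the later stage, with the dashed line marking equal values. The D10 values spread around 0 on both sides. The later values are at least 1 in size by selection, and those of miRNAs at 0 in a group depend on the prior count.

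Several of the miRNAs higher in the ovary at D10 were lower in it at D30. The named miRNAs of each direction were chosen by their D10 p, and a difference between the stages subtracts that D10 fold change. Part of such a difference, here and in the next paragraph, can come from that selection. miR-143-3p averaged 25540.3 ± 2790.3 RPM in WT_Fe_Ov and 71344 ± 7304 RPM in WT_Ma_Te at D30 (SD, n = 3 each), and the difference between the stages was -2.60 ± 0.38 (SE, adjusted p = 5.27e-06) on the log2 scale in the edgeR test. miR-200a-3p averaged 515 ± 186 RPM in WT_Fe_Ov and 4432 ± 666 RPM in WT_Ma_Te, a difference between the stages of -3.93 ± 0.68 (SE, adjusted p = 4.82e-05). miR-33-5p averaged 1.18 ± 1.03 RPM in WT_Fe_Ov and 857 ± 223 RPM in WT_Ma_Te, with all 3 ovary libraries below the floor of 3 counts. At D120 the same miRNA averaged 2002 ± 692 RPM in WT_Fe_Ov and 3665 ± 1149.7 RPM in WT_Ma_Te.

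Of the muscle miRNAs, miR-499a-5p averaged 222 ± 23.0 RPM in WT_Fe_Ov and 4244 ± 362 RPM in WT_Ma_Te at D30 and 1211 ± 213 RPM in WT_Fe_Ov and 205 ± 17.0 RPM in WT_Ma_Te at D120. Relative to D10, its ovary-testis difference was -4.75 ± 0.52 (SE, adjusted p = 1.6e-07) at D30 and 2.27 ± 0.50 (SE, adjusted p = 0.00229) at D120, on the log2 scale. miR-1-3p averaged 169 ± 62.0 RPM in WT_Fe_Ov and 3152 ± 546 RPM in WT_Ma_Te at D30, a difference from D10 of -4.75 ± 0.55 (SE, adjusted p = 2.45e-07), and 2810.5 ± 852 RPM in WT_Fe_Ov and 3447 ± 378 RPM in WT_Ma_Te at D120, a difference of -0.61 ± 0.52 (SE, adjusted p = 0.47). For miR-206-1-3p the differences from D10 were 0.63 ± 1.05 (SE, adjusted p = 0.676) at D30 and -0.41 ± 1.05 (SE, adjusted p = 0.85) at D120, and for miR-133a-3p -0.60 ± 0.42 (SE, adjusted p = 0.248) and -0.17 ± 0.42 (SE, adjusted p = 0.848), so these did not pass the test. Of the miRNAs lower in the D10 ovary, miR-21-5p averaged 14307 ± 2402 RPM in WT_Fe_Ov and 12364 ± 2343 RPM in WT_Ma_Te at D30. Its log2 fold change at D30 was 0.27 (edgeR adjusted p = 0.367). The difference from D10 was 0.97 ± 0.34 (SE, adjusted p = 0.0207), under the minimum of 1 for a DEM. At D120 miR-21-5p averaged 1327 ± 575 RPM in WT_Fe_Ov and 56328 ± 5885 RPM in WT_Ma_Te, in the D10 direction and further apart, by -4.54 ± 0.35 (SE, adjusted p = 1.25e-09). miR-139a-5p averaged 4957 ± 883 RPM in WT_Fe_Ov and 2409 ± 209 RPM in WT_Ma_Te at D30, higher in the ovary and opposite to D10, by 1.99 ± 0.41 (SE, adjusted p = 0.000355).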

How the data were processed

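The authors isolated small RNA of 17 to 32 bases from total RNA, ligated adapters, amplified and sequenced it on an Illumina instrument, and, per the study, discarded reads of low quality, mapped the rest to the ASM223467v1 medaka genome with miRDeep2 and counted reads on FishmiRNA mature sequences. The deposited counts are whole reads per mature miRNA. The deposited RPM values are the authors' counts scaled to a fixed total of miRNA counts per library, and recomputing them gave differences of at most 4.97e-05 RPM. How reads matching several miRNAs were counted is not given in the sources used here, so family members can share reads. Reads carried no molecular identifiers.

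Groups were taken from the sample labels. edgeR 4.0.16 (R 4.3.3) tested the counts of the 9 D10 libraries, so that all shared an estimate of the spread, using the quasi-likelihood method, TMM factors and Benjamini-Hochberg correction. A miRNA entered the fit when 3 or more libraries held 10 or more counts of it, which left out 49, 12 of them at 0 in all 6 libraries. Intervals are 95% and two-sided. Interactions were fitted on all 27 libraries. Levels were plotted and correlated with Python 3.11.15 (numpy 2.4.6, pandas 2.3.3, scipy 1.17.1, matplotlib 3.10.9). The D10 fit was also tested on simulated counts with known changes, whose spread was taken from the D10 libraries.

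Named were, per direction, the 10 miRNAs with the lowest p among those that averaged at least 100 RPM and did not overlap between the groups in RPM, with their opposite arms, the 5 most abundant per group, miR-202, the 6 miRNAs with qPCR primers, 5 miRNAs known to lead the later contrasts, at most 10 DEMs per alternative, and members of the family and tissue lists. The members and lists were chosen with earlier results of these data known. Alternatives were DESeq2 1.42.0, RLE scaling, library totals, other filters and thresholds, 6 or 27 libraries in the fit, a replicate block, and leaving out each library. Hairpin positions come from RefSeq on ASM223467v1, where 37 of the 67 named miRNAs matched a hairpin by name. The study's table of primers supplied the printed sequences.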

Additional observations from a re-analysis of the deposited data

Results flagged for a closer look

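For 9 of the miRNAs named on account of the study or the later stages, the ovary-testis difference at a later stage differed from that at D10 by the edgeR test of the interaction, with an adjusted p of at most 0.05 and at least 2-fold, and no group at or under the detection floor in every library. Of these, 5 were flagged at D30 and 5 at D120, with miR-31a-5p at both stages. Over all 399 miRNAs, 49.4% passed that test and threshold at D30 and 17.5% at D120, without the rule on the floor. Of the candidates, 5 were chosen because they were known to lead the later contrasts of these gonads. For them a change from D10 was likely by selection, so the count of 9 is a description only. At D30 minus D10 the values on the log2 scale were -4.68 for miR-202-5p, 1.61 for miR-30e-2-3p, -1.35 for miR-99a-5p, 6.99 for miR-31a-5p and 3.85 for miR-205-5p. A negative value means that the ovary stood lower relative to the testis than at D10. miR-202-5p averaged 10118 ± 2095 RPM in WT_Fe_Ov and 135068 ± 7368 RPM in WT_Ma_Te at D30, so the testis exceeded the ovary there, while 2 of 3 ovary libraries exceeded the testis at D10. At D120 it averaged 259882 ± 16182 RPM in WT_Fe_Ov and 0 ± 0 RPM in WT_Ma_Te, listed at 0 in all 3 testis libraries, so its fitted difference is no bound and is not given. The 3p arm of the same hairpin averaged 790 ± 373 RPM in WT_Fe_Ov and 1350 ± 169 RPM in WT_Ma_Te at D120. The 0 of miR-202-5p therefore does not mean that miR-202 was absent from the D120 testis, and its cause was not tested. miR-31a-5p averaged 12769 ± 4092 RPM in WT_Fe_Ov and 153 ± 66.0 RPM in WT_Ma_Te at D30, against overlapping groups at D10. miR-204-5p, also known to lead the later contrasts, is not among the 9 because of the rule on the floor. It averaged 0 ± 0 RPM in WT_Fe_Ov and 61155 ± 6845 RPM in WT_Ma_Te at D30, so its fitted difference there is no bound. At D120 the difference of miR-204-5p from D10 was -0.48 ± 0.40 (SE, adjusted p = 0.465).

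At D120 minus D10 the values were 3.55 for miR-146a-5p, -4.09 for miR-7-5p, -4.54 for miR-21-5p, 6.12 for miR-31a-5p and -8.66 for miR-449-1-5p. miR-7-5p averaged 2717 ± 409 RPM in WT_Fe_Ov and 65418 ± 7316 RPM in WT_Ma_Te at D120, while its D10 interval lay within 2-fold. miR-449-1-5p averaged 1.16 ± 0.232 RPM in WT_Fe_Ov and 468 ± 69.1 RPM in WT_Ma_Te at D120. That WT_Fe_Ov level is near the floor of 3 counts, which equals 1.63, 0.853 and 1.46 RPM in replicates 1, 2 and 3. The direction of the miR-449-1-5p change is clear, but its size of -8.66 is uncertain.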

How the results depend on the processing

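The count of 0 DEMs held with RLE scaling, library totals, other filters on low counts and the 6 libraries alone. A stricter p and no minimum fold change also gave 0 DEMs, which the lowest adjusted p of 0.0857 fixed in advance. The count of 0 did not hold with DESeq2 (23 DEMs, or 20 on the 6 libraries alone) or the 27 libraries in 1 fit (2 DEMs). The fit of 27 libraries had 49 miRNAs with an unadjusted p under 0.05, 35 higher and 14 lower, and 53 with an interval within 2-fold. The cause of these differences between settings was not tested. Leaving out each replicate gave 0 to 7 DEMs, 36 to 79 miRNAs with an unadjusted p under 0.05, 61 to 110 with an interval within 2-fold, and, in an alternative chosen after seeing the data, 97 to 138 without overlap. WT_Fe_Ov replicate 1 gave the 36, and WT_Fe_Ov replicate 2 the 7, the 61 and the 138; without testis replicates 1, 2 and 3 the counts without overlap were 131, 134 and 133, with fewer values to overlap. No pairing by replicate number was seen (correlation of deviations 0.08, 0.17 and -0.25 for numbers 1 to 3, against -0.27 to 0.22 for unlike numbers). With 3 libraries per group this check cannot exclude a pairing. With a replicate block there were 0 DEMs, 66 miRNAs under 0.05 and 88 with an interval within 2-fold, and 195 and 65 interactions at D30 and D120. On the 12 libraries compared, the D120 interaction count was 114. The fold changes of 32 named miRNAs (those chosen by their p or as DEMs of an alternative, and miR-202-5p) were followed under 17 alternatives. Of these, 519 kept their direction and side of the threshold, 25 kept their direction and became DEMs, and 0 reversed. Such miRNAs were unlikely to reverse, and some were named because they became DEMs, so these counts follow in part from the selection. The 17 leave out DESeq2 on the 6 libraries alone. In that fit miR-190b-5p was a DEM as well (log2 fold change -2.11, DESeq2 adjusted p = 0.0293). Of the 33 other named and tested miRNAs, which include the most abundant ones, the qPCR set and the opposite arms, 12 changed sign under at least 1 alternative, and their log2 fold changes were 0.62 or less in size. Of those 33, miR-499a-3p and miR-92a-1-5p became DEMs, both with DESeq2. Without WT_Fe_Ov replicate 2, 16 list counts moved by over 1.5 times, and 56 did not.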

Other observations

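Some DEMs of DESeq2 lay below 100 RPM. miR-1788-3p had 92.0, 16.5 and 61.8 RPM in WT_Fe_Ov, against 5.92, 8.34 and 10.2 RPM in WT_Ma_Te, with a log2 fold change of 2.60 ± 0.61 (SE, edgeR adjusted p = 0.0857, DESeq2 adjusted p = 0.00102, edgeR adjusted p without WT_Fe_Ov replicate 2 = 0.0172). miR-101a-3p averaged 30.5 ± 9.06 RPM in WT_Fe_Ov and 11.9 ± 1.16 RPM in WT_Ma_Te (SD, n = 3 each), and miR-101b-3p, from a hairpin on another chromosome, averaged 25.5 ± 10.2 RPM in WT_Fe_Ov and 7.66 ± 1.96 RPM in WT_Ma_Te. Both miR-101 miRNAs were higher in every ovary library. miR-138a-3p was lower, with 8.89, 12.4 and 21.9 RPM in WT_Fe_Ov, against 77.8, 33.0 and 26.1 RPM in WT_Ma_Te, and testis replicate 1 was the highest library. Above that level, miR-153a-3p, a neural miRNA, had 521, 112 and 1163 RPM in WT_Fe_Ov, against 239.7, 75.0 and 131 RPM in WT_Ma_Te, with ovary replicate 2 below 2 of the testis libraries; without that replicate its log2 fold change was 2.32 (edgeR adjusted p = 0.0467).

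Among the 180 tested miRNAs of at least 100 RPM, single libraries lay at least 4-fold from both others of their group, on RPM + 1, for a few miRNAs. Ovary replicate 2 was below for 4: miR-124-3p, miR-153a-3p, miR-27a-3p and miR-33-5p. Testis replicate 1 was above for 2, miR-124-3p and miR-190b-5p, and below for 2, miR-184b-3p and miR-199-3p. Testis replicate 2 was below for 3, miR-210-5p, miR-9-4-3p and miR-9-7-3p, and testis replicate 3 for miR-214-3p. Ovary replicates 1 and 3 had none. miR-199-3p had 21416, 22761 and 26148 RPM in WT_Fe_Ov, against 2547, 18707 and 21461 RPM in WT_Ma_Te, while its 5p arm had 11111, 8753 and 13452 RPM in WT_Fe_Ov, against 7633, 12444 and 10105 RPM in WT_Ma_Te.

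The MT_Fe_Ov libraries of D10 belong to neither group, and their values are given beside the others without a comparison. miR-33-5p had 215, 97.3 and 271 RPM in MT_Fe_Ov, beside 334, 30.1 and 203 RPM in WT_Fe_Ov and 28.8, 17.5 and 15.0 RPM in WT_Ma_Te. miR-459-5p had 1042, 485 and 1218 RPM in MT_Fe_Ov, and miR-143-3p had 17784, 16068 and 18426 RPM. miR-26a-2/3-ba-5p, the most abundant miRNA of WT_Fe_Ov, had 79037, 89361 and 0 RPM in MT_Fe_Ov, the 0 being in the deepest of the 9 libraries. In the fit that shares the spread over these 9 libraries its 95% interval was -4.19 to 3.78 on the log2 scale.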
